A study of Homo sapiens with 4 samples.

Results

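The transcripts described here were 1331 long non-coding RNA (lncRNA) transcripts of 1131 genes that carry only an Ensembl gene number as a name and that lie antisense to exons of protein-coding genes. They were taken from 19835 non-coding transcripts measured in HUH7, an established human hepatocellular carcinoma cell line, by an annotation rule that used no expression value. A transcript was included when GENCODE release 44 on GRCh37 gave its gene as a lncRNA without a symbol, when at least 1 exonic base lay opposite an exon of a protein-coding transcript, and when no exonic base lay on a protein-coding transcript of the same strand. The extended major histocompatibility region on chromosome 6 was left out. The data were 4 RNA-seq libraries of HUH7 cells given no treatment in the labels, forming 1 group with no control group. The titles call libraries 1 and 3 L and libraries 2 and 4 H, letters that the submitters state were no variable of the study, so the libraries were not split by them. The labels do not tie the libraries to cultures grown apart, so each p-value reflects how far these 4 libraries differ among themselves, and that spread may be technical.

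Antisense lncRNAs are transcribed from the strand opposite to another gene. A pair may share a promoter region and run apart (head to head), meet at their 3′ ends (tail to tail), or lie one inside the other, and antisense transcripts of each arrangement are known to affect the gene opposite, through the act of transcription, through chromatin, or by pairing with its RNA, while many have no known role. The level of a transcript is given in FPKM, a fragment count divided by transcript length and by the fragments of the library, so that its scale allows transcripts to be compared. The protocol names a strand-specific kit, but whether strand was used in counting is not given in the sources used here, and the counting reference held no coding transcripts, so reads from a coding exon and from the antisense exon over it cannot be told apart in these values.

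Sequences shown here are those of GRCh37 on the strand of the lncRNA, 5′ to 3′. The first set shows what the overlap looks like in members of high level whose whole overlap is 1 block of coding sequence. Capitals mark the bases that lie opposite the coding sequence and lower case marks the next bases of the same lncRNA exon. ENSG00000237250 (chr1:238045766-238045868, plus strand) had 84 bases opposite ZP4, a glycoprotein of the egg coat. ENSG00000259773 (chr15:51041845-51041963, plus strand) had 99 bases opposite SPPL2A, a protease that cuts within membranes. ENSG00000259519 (chr15:45462542-45462700, plus strand) had 139 bases opposite SHF, an adaptor protein. ENSG00000255348 (chr11:134048719-134048814, plus strand) had 96 bases opposite NCAPD3, a subunit of the condensin II complex.
ENSG00000237250: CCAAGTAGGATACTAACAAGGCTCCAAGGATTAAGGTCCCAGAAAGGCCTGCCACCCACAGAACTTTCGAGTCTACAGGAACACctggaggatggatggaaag
ENSG00000259773: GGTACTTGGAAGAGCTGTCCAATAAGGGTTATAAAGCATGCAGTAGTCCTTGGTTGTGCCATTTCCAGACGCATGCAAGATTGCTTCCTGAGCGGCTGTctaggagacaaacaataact
ENSG00000259519: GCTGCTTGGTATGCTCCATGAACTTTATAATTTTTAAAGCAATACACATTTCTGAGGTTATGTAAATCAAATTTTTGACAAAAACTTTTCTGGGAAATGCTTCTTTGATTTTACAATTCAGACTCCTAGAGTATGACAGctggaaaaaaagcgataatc
ENSG00000255348: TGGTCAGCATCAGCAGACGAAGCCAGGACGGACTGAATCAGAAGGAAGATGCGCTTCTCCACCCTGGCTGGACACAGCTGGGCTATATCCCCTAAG

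The second set shows the ends of introns that lie wholly inside 1 exon of the opposite coding gene, because the letters at their ends are compared with those of other introns further on. For each transcript the first line spans the start of the intron and the second its end, 9 bases to either side, and capitals mark the first and last pair of intron bases. The introns belong to ENSG00000203469 opposite DFFA (starts within chr1:10518821-10518838 and ends within chr1:10519138-10519155, plus strand), ENSG00000258660 opposite DNAL1 (chr14:74166858-74166875 and chr14:74165302-74165319, minus strand) and ENSG00000257764 opposite LYZ (chr12:69747514-69747531 and chr12:69747380-69747397, minus strand).
ENSG00000203469 start: tgacctcagGTgatccat
ENSG00000203469 end: tgacctcAGgtgatccgc
ENSG00000258660 start: accacgttgGCcaggctg
ENSG00000258660 end: caaaaatAGgccaggcat
ENSG00000257764 start: ctttgggagGCcgaggtg
ENSG00000257764 end: actcgggAGgctgaggca

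The members were spread over 23 chromosomes, with 148 on chromosome 17, 140 on chromosome 16, 123 on chromosome 1, 8 on chromosome 19 and 2 on chromosome 13. The 1797 lncRNA transcripts with a gene symbol that met the same rule on overlap (named antisense lncRNAs) had 88 on chromosome 17 and 75 on chromosome 16. The members shared a median of 201 exonic bases with the opposite strand (quartiles 106 and 423.5), which was a median of 32.6% of their length. In 203 members every base was opposite a coding exon. Coding sequence alone was covered in 526 members, UTR alone in 444 and both in 361. Their median length was 574 nt, with a median of 2 exons and a GC content of 49.1%.

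In the deposited values 5 FPKM is the level the study used to call a transcript expressed. The mean of the 4 libraries was above 5 FPKM in 288 of 1331 members (21.6%), and 541 members (40.7%) were at 0 in every library. Over all 19835 transcripts 28.4% had a mean above 5 FPKM. The share was 28.6% among the named antisense lncRNAs, 25.7% among 5927 unnamed lncRNA transcripts without overlap with a coding exon, and 56.2% among 283 unnamed lncRNA transcripts that share exonic bases with a coding transcript of their own strand. The median over all members was 0.203 FPKM, against 0.338 FPKM over all transcripts. These are counts beside each other with no test of the difference.

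The comparison with 5 FPKM was tested on log2(FPKM + 1) with limma for every transcript with a mean of at least 0.1 FPKM. The filter was passed by 744 members and failed by 587. Of the 744, limma placed 243 above 5 FPKM and 401 below it at an adjusted p below 0.05, and 100 could not be placed. Over all 11435 transcripts tested, 41.9% were placed above and 43.3% below, against 32.7% of the tested members above. All 4 libraries were above 5 FPKM in 246 members and at least 1 was in 333. The level of the members was alike between libraries, with Pearson correlations of log2(FPKM + 1) from 0.962 to 0.965 over the 744 members, which share a cell line and a reference. The members took 1.14% to 1.48% of the summed FPKM of a library.

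The spread between libraries was wider at low levels. The FPKM steps of low transcripts gave an estimate of 4500000 to 5060000 fragments per library, with 66.7% to 67.9% of values whole within 0.05 of a fragment, so fragment numbers are estimates. Members between 0.1 and 1 FPKM had a median of 0.589 fragments per library and a median coefficient of variation (CV, SD divided by mean) of 120%. Members above 100 FPKM had a median of 790 fragments and a median CV of 11.3%. The highest member, ENSG00000237250, had a CV of 18.8%, where counting alone would give 0.669% by its estimated fragments. For ENSG00000247416, at 40.9 FPKM, the CV was 3.07%, where counting alone would give 5.25%. This transcript was picked for being among the 3 lowest CVs of members above 5 FPKM. The source of the spread was not tested. Among the liver lncRNAs listed as markers 9 were measured and 6 of them were above 5 FPKM, led by HULC at 693 ± 64.8 FPKM (SD, n = 4), while LINC01093 was at 0. The 5 measured markers of blood, neural or muscle cells were at 0 to 1.97 FPKM.

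The 14 members of high level described here ranged from 438 to 1539 FPKM, and all 14 were placed above 5 FPKM by limma. They were chosen for their high mean in the same libraries, so the choice fixed this placement and the p-values add no support. ENSG00000237250, the transcript opposite ZP4 whose shared bases are shown above, stood at 1834, 1168, 1687 and 1466 FPKM in libraries 1 to 4. Its mean of 1539 ± 290 FPKM (SD, n = 4) was the highest of the members, at 7.98 ± 0.11 log2 units above the threshold (SE; limma adjusted p = 7.761e-12). It has 12 exons over 3127 nt (chr1:238025475-238091621), spans ZP4, and has 2.69% of its length opposite its exons. It alone held 6.4% of the summed FPKM of all members, and the 10 highest held 35%.

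The next members were mostly short transcripts of 2 or 3 exons. ENSG00000203472, which lies wholly opposite untranslated exon sequence of the keratan sulfate sulfotransferase gene CHST6, stood at 909, 1025, 1137 and 915 FPKM. ENSG00000183308 stood at 840, 964, 897 and 820 FPKM opposite HYCC2, a component of the complex that holds a phosphatidylinositol kinase at the cell membrane. In both transcripts the spread between libraries was small beside the distance to the threshold, and their levels overlapped.

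ENSG00000260235 stood at 850, 884, 979 and 743 FPKM opposite SNUPN, which carries spliceosomal RNPs into the nucleus. ENSG00000259342 opposite C15orf48, a mitochondrial protein, and ENSG00000253715 opposite LY6D, a surface protein, both had means of 695 FPKM (SD 67.5 and 93.0, n = 4). ENSG00000240291 opposite the calcium channel subunit gene CACNB2 had a mean of 635 ± 85.8 FPKM. Both transcripts of ENSG00000265073 opposite the ciliary kinase gene NEK8 were among the 14, at 519 ± 24.3 and 438 ± 52.5 FPKM.

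The remaining members of the 14 lay opposite SPPL2A (518 ± 83.9 FPKM), SHF (487 ± 46.5), PAPSS2 (484 ± 54.9), DFFA (463 ± 28.7) and AMZ2 (444 ± 46.0). PAPSS2 makes the sulfate donor of the cell, DFFA is the inhibitor of the caspase-activated DNase, and AMZ2 is a metalloprotease. The overlap of ENSG00000265100 with AMZ2 was only 9 bases of 1313. Library 4 was the lowest of the 4 in 8 of the 14 members and the highest in none, while libraries 2 and 3 were the highest in 7 and 5 of them. The same order held over all transcripts above 0 in every library. There the median ratio of a library to the geometric mean of the 4 was lowest in library 4 (0.925) and highest in libraries 2 and 3 (1.12 and 1.02).

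**Figure D1:**
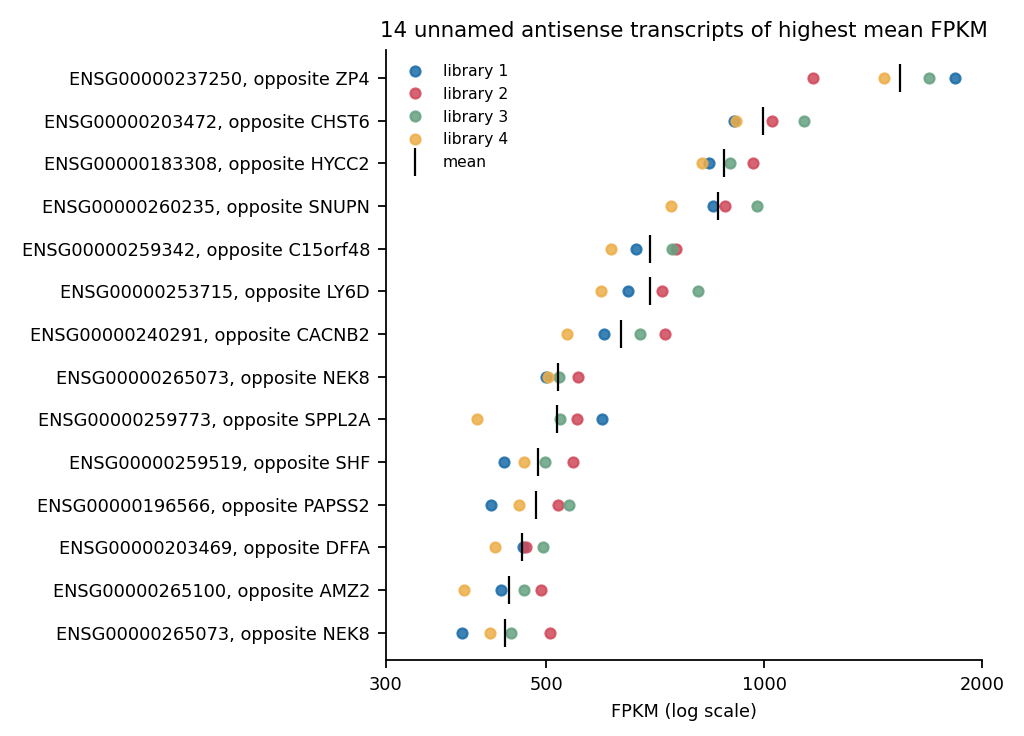
FPKM in each of the 4 HUH7 libraries (points, log scale) and their mean (black bar) for 14 members of high mean, each labelled with its gene and the coding gene opposite. The member opposite ZP4 lies between 1168 and 1834 FPKM, and the lowest of the 14 has a mean of 438 FPKM.

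Repeated sequence moved with level. It was measured as the share of a transcript's sampled 24-base words that occur at least 10 times in GRCh37, as words of interspersed repeats do, and it was not used to choose the members. Members between 0.1 and 1 FPKM had a median of 0% and 0.380% of them had 25% or more. The share with 25% or more was 2.07% at 1 to 5 FPKM, 4.03% at 5 to 20 FPKM and 57.4% of the 47 members above 100 FPKM, and at 20 to 100 FPKM it was 14 of 117. Read the other way, over all members and with no filter on level, 7.31% of 971 members with no such word found were above 5 FPKM, against 88.2% of 51 members with over 25%. Of the 971, 543 had a mean under 0.1 FPKM. Over the 744 tested members the rank correlation of mean FPKM with repeated sequence was 0.64, with length 0.23, with the share of overlap -0.15, with GC content -0.03 and with the distance between start sites -0.06. The points share libraries and reference, and no p is given.

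The same gradient was present in named antisense lncRNAs, where 38.8% of the 67 above 100 FPKM had 25% or more repeated sequence, and in unnamed lncRNAs without coding overlap. A stretch of at least 50 bases shared in sense, at 95% identity or more, with an mRNA or small structural RNA from elsewhere in the genome was found in 34 of the 47 members above 100 FPKM and in 11 of 263 at 0.1 to 1 FPKM. Of the members at the top, the transcript opposite CHST6 had 42.1% repeated words, that opposite SNUPN 53.6% and the higher one opposite NEK8 71.1%. The member opposite ZP4 had 1% and no shared stretch. The part of reads from other copies of these sequences in the FPKM was not tested.

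**Figure D2:**
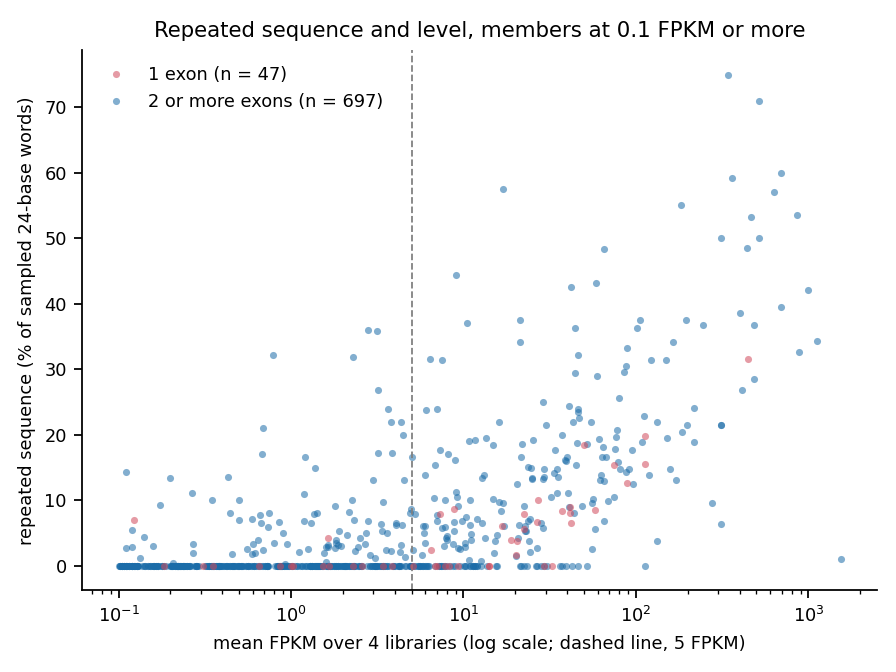
Each point is 1 of 744 members with a mean of at least 0.1 FPKM. The x axis is the mean FPKM of 4 libraries (log scale, dashed line at 5 FPKM) and the y axis the share of sampled 24-base words that are repeated in the genome. Nearly all members at 0.1 to 1 FPKM lie at or near 0%, and the member at 1539 FPKM lies at 1%.

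Members with under 5% repeated words were therefore looked at apart, a set chosen after the values were seen. Of these, 103 had a mean above 5 FPKM, and limma placed 74 above and 362 below. Of the 744 tested members 428 had no repeated word found and 79 more had up to and including 5%. Over all 744 limma placed 243 above and 401 below, and over all 11435 transcripts tested 41.9% above and 43.3% below. There were 28 members with under 5% repeated words above 20 FPKM, out of 164 members above that level. Limma placed all 28 above 5 FPKM, but their choice by level in the same libraries fixed this outcome. Of the 28, 24 had no shared stretch. The 28 ran head to head with the coding gene in 9, tail to tail in 11, inside it in 7 and spanned it in 1. After the transcript opposite ZP4, the highest was ENSG00000258561 opposite GPHN, the scaffold of inhibitory synapses, at 124, 154, 143 and 106 FPKM. Shared stretches covered 7.11% of its length, the longest with CDKAL1. ENSG00000249041 opposite RBM46, a germ cell RNA-binding protein, stood at 99.3, 141, 84.7 and 126 FPKM. Its libraries 2 and 4, titled H, lay above libraries 1 and 3, titled L. For the transcript opposite ZP4 libraries 1 and 3 lay above libraries 2 and 4, and neither split was tested.

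Other transcripts of this set lay below these levels. ENSG00000261723 opposite PALB2, a partner of BRCA2 in recombination repair, stood at 56.1, 62.4, 54.5 and 49.4 FPKM. ENSG00000265254 opposite the folate transporter gene SLC46A1 stood at 56.1, 43.9, 54.1 and 54.3 FPKM. ENSG00000225057 opposite the clock gene PER2 had a mean of 46.4 ± 2.94 FPKM, ENSG00000227627 opposite the mitochondrial release factor gene MTRF1L 42.5 ± 7.18, and ENSG00000228404 opposite LSS, the lanosterol synthase of cholesterol synthesis, 39.5 ± 2.51 (SD, n = 4). Shared stretches covered 21.3% of the transcript opposite PER2, the longest with TARDBP.

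Opposite the choline kinase gene CHKA, ENSG00000255031 had a mean of 36.1 ± 6.19 FPKM. A single-exon transcript of ENSG00000261335 stood at 32.6 ± 3.46 FPKM opposite MXRA7, and ENSG00000258430, wholly opposite exonic UTR of the kinase gene AKT1, at 30.7 ± 3.80 FPKM. ENSG00000233223 overlaps CD68, a macrophage glycoprotein, and MPDU1, which is needed for protein glycosylation, and stood at 41.2, 45.3, 19.0 and 43.3 FPKM, with library 3 below the others.

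The arrangement of the pair was recorded for every member. In 713 the lncRNA lay inside the coding gene, 329 pairs were tail to tail, 258 head to head and 31 members spanned the coding gene. Head-to-head members had a mean above 5 FPKM in 29.5%, spanning members in 25.8%, tail-to-tail members in 21.3% and inside members in 18.8%. The share was 33.7% of the 169 head-to-head members whose start lay within 1000 nt of the coding start and 21.3% of the 89 further apart. Among named antisense lncRNAs it was 31.0% head to head, 34.7% tail to tail, 18.5% inside and 14.1% spanning (9 of 64). Members opposite coding sequence alone were above 5 FPKM in 18.3%, those opposite UTR alone in 24.5% and those opposite both in 23.0%.

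Of the 52 members with a single exon 61.5% were above 5 FPKM, with a median of 8.02 FPKM, against 20.2% of 771 members with 2 exons (median 0.198 FPKM). All 17 single-exon members that ran head to head had a mean above 0, and 13 of them were above 5 FPKM. Members longer than 1000 nt were above 5 FPKM in 39.9%, and members of up to 300 nt in 8.33%. Within members over 1000 nt, 30 of 43 with 1 exon and 69 of 205 with several exons were above 5 FPKM. Of 30 named antisense lncRNAs with 1 exon 18 were above 5 FPKM. An unspliced transcript and unspliced RNA of the locus cannot be told apart in these values.

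By extent of overlap, the share above 5 FPKM was 30.6% where up to 10% of the transcript was opposite coding exons, 19.8% at 10% to 25%, 21.3% at 25% to 50%, 19.5% at 50% to under 100% and 19.2% where all of it was.

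**Figure D3:**
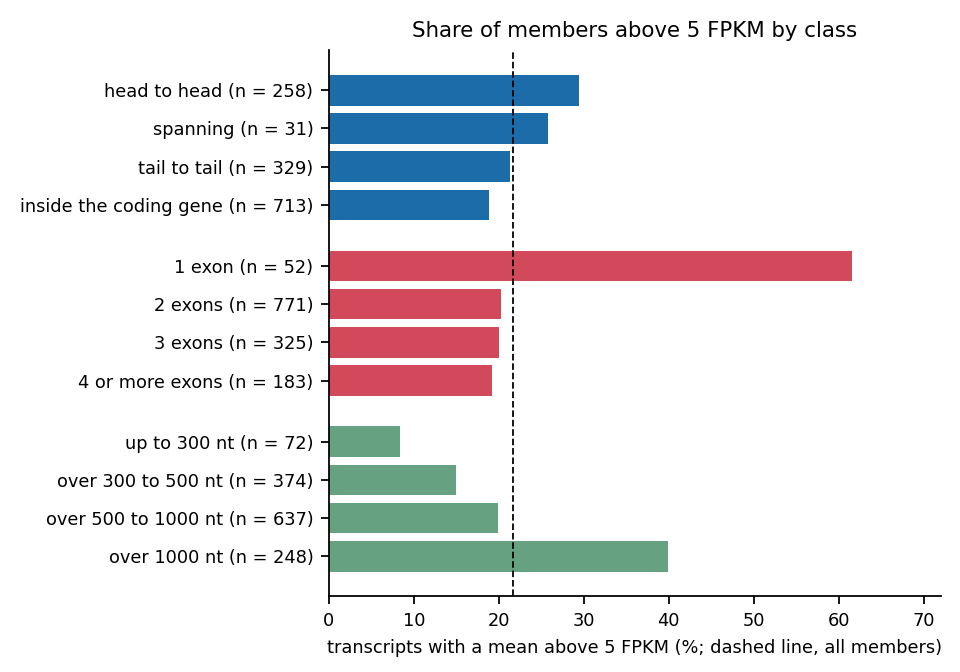
Percent of members with a mean above 5 FPKM (bars from 0, number of members in brackets) by arrangement with the coding gene, number of exons and length. The dashed line is the share over all 1331 members, 21.6%, and the 52 single-exon members reach 61.5%.

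Among the members that share most exonic bases with the opposite strand, ENSG00000225339 was opposite 7065 bases of UTR at NUDT3, a phosphohydrolase of inositol phosphates, over its single exon, at 41.5 ± 4.45 FPKM (SD, n = 4). ENSG00000230733, with 3251 bases opposite the ubiquitin ligase receptor gene FBXL18, was at 55.4 ± 4.79 FPKM. ENSG00000251143 had 2432 bases of coding sequence opposite NUMA1, a protein of the spindle poles, and stood at 18.4, 25.0, 20.3 and 19.4 FPKM. ENSG00000262732, a single exon of 4934 nt with 1848 bases opposite ERCC4, stood at 113 ± 11.3 FPKM, and ENSG00000259941, with 1638 bases opposite TEX9, at 37.2 ± 4.31 FPKM.

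The introns of the members were compared by where they lay. Most introns begin with GT and end with AG, and a minor class begins with GC. Of 2034 introns, 91.3% were GT-AG and 8.06% GC-AG, while named antisense lncRNAs had 2.41% GC-AG and unnamed lncRNAs without coding overlap 4.22%. In 268 introns of the members the whole intron lay inside 1 exon of the opposite coding gene. Of these 27.6% were GC-AG, against 5.10% of the other 1766 introns. The figure for 110 such introns of named antisense lncRNAs was 7.27%. These shares come from the annotation and genome alone, so no library bears on them.

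Many of these introns carried the same letters at both ends. Where the bases at an intron's start match those at its end, the intron can slide along the genome without changing the spliced RNA. A slide of 4 bases or more was possible in 61 of 74 GC-AG introns inside an opposite coding exon (82.4%), in 50.0% of 90 other GC-AG introns, in 40.3% of 191 GT-AG introns inside an opposite exon and in 22.7% of 1667 other GT-AG introns. An exon that ends in AG adds a pair of bases to the slide, since introns end in AG. Such an exon preceded 82.4% of the GC-AG introns inside an opposite exon, 82.2% of the other GC-AG introns, 55.5% of the GT-AG introns inside an opposite exon and 59.7% of the other GT-AG introns. A slide of 8 bases or more was found in 8.96% of introns inside an opposite exon and in 1.30% of the others. Named antisense lncRNAs had 5.5% and 0.286% by the same split. In unnamed lncRNAs without coding overlap a slide of 4 bases or more was possible in 52.5% of 406 GC-AG introns and 17.55% of 9169 GT-AG introns. An exon ending in AG preceded 80.3% and 55.8% of these, so the pattern was not particular to the members.

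The intron shown above opposite DFFA slides by 22 bases and those opposite DNAL1 and LYZ by 8 and 7. Lengths of 130 to 140 nt, a window chosen after the values were seen that holds the LYZ intron of 134 nt, were found in 8 of 268 introns inside an opposite exon and in 6 of 1766 others. The 47 members with an intron that slides by 8 bases or more were above 5 FPKM in 44.7%, against 20.8% of the other 1284. Repeated words, which moved with level, made up 53.3% of those sampled in the transcript opposite DFFA. They were not compared between these groups, so their part in the difference was not tested. Whether these introns are spliced out in HUH7 was not tested, since the values are per transcript. The levels of the transcripts with the introns shown were 463 FPKM (DFFA), 311 FPKM (DNAL1) and 218 FPKM (LYZ), and members with a GC-AG intron were above 5 FPKM in 20.6%, against 21.8% of the rest.

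**Figure D4:**
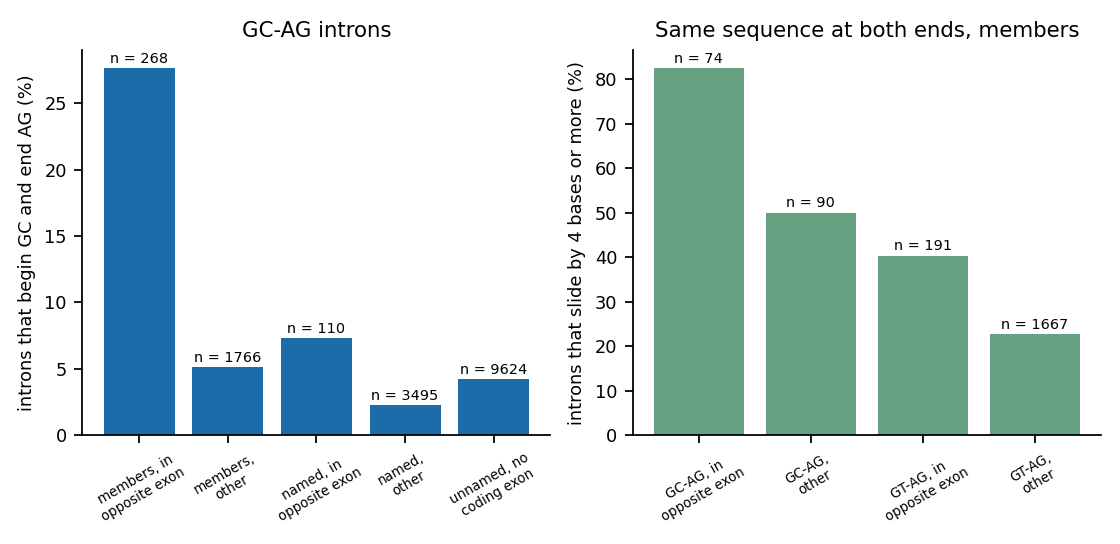
Left, percent of introns that begin with GC and end with AG, in members, named antisense lncRNAs and unnamed lncRNAs without coding overlap, split by whether the intron lies inside an exon of the opposite coding gene. Right, percent of the members' introns that can slide by 4 bases or more, 82.4% for GC-AG introns inside an opposite exon and 22.7% for the other GT-AG introns. Numbers over bars count introns.

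The coding genes opposite were grouped by 14 lists, which together covered 207 of 1331 members. Members opposite genes of liver function were few. There was 1 member opposite a secreted liver protein gene, placed below 5 FPKM, and 1 opposite a hepatocyte transcription factor gene, at 0 in all libraries. Of 23 members opposite genes on the liver metabolism list, 5 were placed above 5 FPKM and 8 below. That list is not limited to genes of the liver. Its highest member, ENSG00000261821, runs head to head with CYP11A1, the enzyme that starts steroid hormone synthesis. This transcript stood at 301, 346, 326 and 276 FPKM. ENSG00000249604 opposite CYP2U1, a fatty acid hydroxylase, was at 91.7 ± 10.0 FPKM, and ENSG00000224814 opposite UGT1A6, which joins glucuronic acid to phenols, at 23.8 ± 3.15 FPKM.

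None of 4 members opposite liver cancer driver genes had a mean above 5 FPKM, and of the 2 that limma tested none was placed in either direction, also at an unadjusted p below 0.05. Of 29 members opposite cell cycle and DNA replication genes, 7 were placed above and 9 below. They included ENSG00000183308, which overlaps ORC2, a subunit of the origin recognition complex, as well as HYCC2. They also included ENSG00000255348 opposite NCAPD3 at 252, 255, 268 and 200 FPKM and ENSG00000261872 opposite CDC27, a subunit of the anaphase-promoting complex, at 52.0 ± 8.28 FPKM. The DNA repair list, which does not hold every repair gene, had 3 members opposite 2 of its genes. ENSG00000262732 opposite ERCC4, a nuclease of excision repair, was described above, and ENSG00000254846 opposite PARP2, which marks broken DNA with ADP-ribose, stood at 12.5, 7.47, 8.89 and 9.17 FPKM.

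Zinc finger transcription factor genes had 18 members opposite, 6 above and 5 below. The highest was ENSG00000239791 opposite ZNF688 and ZNF785 at 61.5 ± 9.98 FPKM, followed by ENSG00000197670 opposite ZNF217 at 45.7 ± 8.74 and ENSG00000241490 opposite ZNF80 at 40.6 ± 4.12. Opposite solute carrier genes 7 of 27 members were above and 8 below, with SLC25A45 at the top (163 ± 17.8 FPKM) and SLC25A18 next (84.9 ± 11.5 FPKM). Ubiquitin and proteasome genes had 24 members opposite, 4 above and 8 below, among them ENSG00000224738 opposite the ligase gene TRIM37 at 45.1 ± 3.95 FPKM and ENSG00000257279 opposite FBXW8 at 29.0 ± 5.00 FPKM.

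Of 19 members opposite genes of the ribosome and translation 3 were above and 8 below. The highest was ENSG00000225339, described above opposite UTR at NUDT3, which entered the list through the gene name RPS10-NUDT3. Also placed above were ENSG00000263826 opposite the helicase gene EIF4A2 (9.31 ± 1.58 FPKM) and ENSG00000264577 opposite RPL23A (9.05 ± 1.19 FPKM). Of 3 opposite genes of mitochondrial respiration 2 were above, opposite the complex I subunit genes NDUFS7 (24.4 ± 6.51 FPKM) and NDUFS1 (9.61 ± 1.66 FPKM). RNA splicing and processing genes had 1 of 9 above and 3 below. No member of 10 opposite chromatin and histone genes had a mean above 5 FPKM, and 3 were placed below. Of 38 members opposite neural and muscle genes 25 were at 0 and 4 were above, among them transcripts opposite the muscle myosin gene MYH13 (88.6 ± 14.3 FPKM), the calcium release channel gene RYR3 (40.1 ± 7.22) and the potassium channel gene KCNC2 (11.6 ± 0.773). Over all 1331 members 18.3% were placed above and 30.1% below, and no list was tested against them.

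The 4 libraries were closest for ENSG00000253200 opposite CCAR2 (6.29, 6.36, 6.66 and 6.62 FPKM), which limma did not place, and for ENSG00000247416 opposite the adhesion gene NCAM1 (41.5, 41.1, 42.0 and 39.1 FPKM). ENSG00000262712 opposite GLIS2 followed, with a CV of 4.19%. They were furthest apart for ENSG00000257275 opposite TCL1A (9.72, 2.54, 20.6 and 3.49 FPKM), ENSG00000250699 opposite CEP164 (3.57, 12.3, 1.90 and 6.21 FPKM) and ENSG00000259684 opposite TRPM7 (4.98, 10.4, 2.18 and 2.60 FPKM), among members with a mean above 5 FPKM. None of these last 3 was placed by limma, with adjusted p of 0.3842, 0.9827 and 0.599. The members nearest to 5 FPKM that could not be placed were a transcript of ENSG00000183308 (7.69, 5.12, 3.14 and 3.95 FPKM) and ENSG00000237481 opposite CCSAP (2.37, 7.36, 3.77 and 6.38 FPKM).

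Transcripts of 1 gene could differ widely. There were 144 genes with several members. For ENSG00000183308 the levels were 880 and 4.98 FPKM. The high transcript held 32.7% repeated words and the low one 0%. Both transcripts of ENSG00000265073 were high, at 519 and 438 FPKM, with 71.1% and 48.5% repeated words.

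For 47 members the coding gene opposite also had non-coding transcripts of its own in the table, such as retained-intron forms. In 41 of these pairs at least 1 side reached a mean of 0.1 FPKM, but in 24 of the 41 the member did not, and 23 members were listed at 0 in every library. Such a pair entered through its sense side alone, so its direction was fixed by the filter. Limma on the paired log2(FPKM + 1) values of all 41 placed 30 members below the summed sense transcripts and 3 above (60.2% and 25.3% over all 83 pairs, named antisense lncRNAs included), and 18 of the 30 were pairs of that kind. The comparison therefore rests on the 16 pairs in which both sides reached 0.1 FPKM. Of these, limma placed the member below in 12 and above in 2, with 2 not placed, against 51.2% below and 39.5% above over all 43 such pairs. The pairs are not all separate. Among those below, transcripts of ENSG00000223725 shared the sense values of CREB1, and transcripts of ENSG00000240591 shared those of EIF4ENIF1. Since the reference held no coding transcripts, the part of mRNA fragments in the sense values was not tested.

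Members at or near 0 could lie opposite genes whose own non-coding transcripts were high, and for these the values are given with no difference. ENSG00000260349 stood at 0, 0, 0 and 0.31 FPKM opposite HAPSTR1, a stress response protein, whose sense transcript was at 374.5 ± 23.1 FPKM (SD, n = 4). The members opposite MPRIP, a regulator of myosin phosphatase, and MNT, a repressor of the MYC network, were listed at 0 in every library, with sense transcripts at 329.5 ± 13.9 and 315.5 ± 22.6 FPKM. Both transcripts opposite MTLN, a small mitochondrial protein, were listed at 0 beside a sense level of 246 ± 29.4 FPKM.

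Over the 41 pairs, the members above their sense transcripts were opposite FSIP1, MYADM and ZNF529. ENSG00000261136 stood at 7.98, 8.55, 5.84 and 5.83 FPKM against a sense mean of 0.778 FPKM, a difference of 2.33 ± 0.35 log2 units (SE; limma adjusted p = 0.001059). ENSG00000232220 opposite the membrane protein gene MYADM stood at 63.3, 97.2, 48.2 and 40.1 FPKM against 13.7 FPKM, a difference of 2.06 ± 0.32 log2 units (limma adjusted p = 0.001133). ENSG00000228629 opposite ZNF529 was low on both sides, at 1.69 ± 0.545 against 0.723 ± 0.655 FPKM, and was not placed among the pairs with both sides at 0.1 FPKM or more (limma adjusted p = 0.1652). Each of these 3 pairs holds a transcript whose version in the table differs from that of the annotation, and with such pairs left out limma placed 0 of 24 above, also at an unadjusted p below 0.05.

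**Figure D5:**
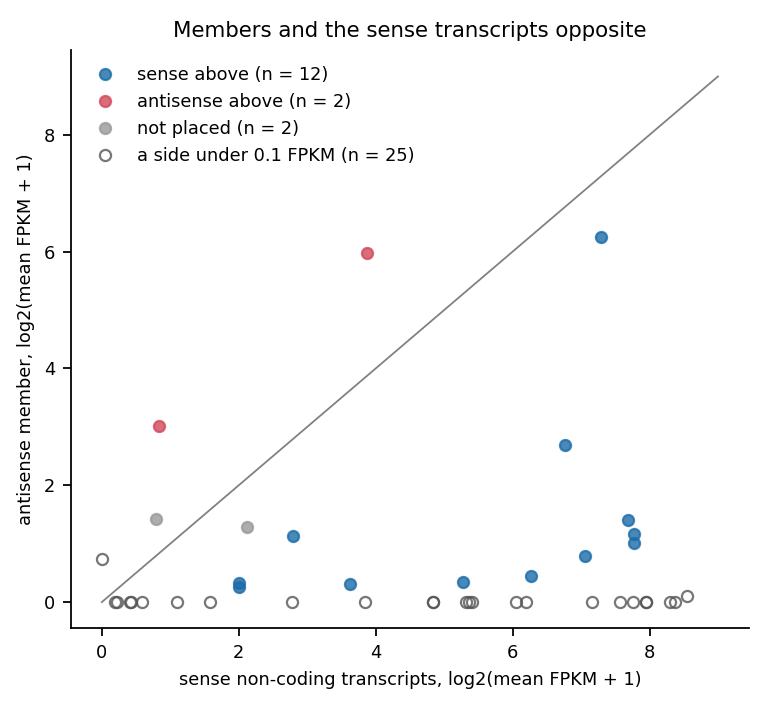
Mean level of 41 members (y axis) against the summed non-coding sense transcripts of the coding gene opposite (x axis), both as log2(mean FPKM + 1), with the line of equal level. Of the 16 pairs with both sides at 0.1 FPKM or more, limma placed 12 members below (blue) and 2 above (red), with 2 not placed (grey), and open circles are the 25 pairs with a side under 0.1 FPKM.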

How the data were processed

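RNA of 4 HUH7 samples was sequenced with a Ribo-Zero kit (the labels' molecule field says polyA RNA). Per the labels and the study's methods, the authors aligned reads with Bowtie 1.01 to hg19 transcripts of the Ensembl non-coding annotation and deposited FPKM values from RSEM 1.2.3, with no counts. The depth was therefore estimated from the steps of low FPKM values. FPKM summed to 1755972 to 1965229 per library.

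Identifiers were matched without their version to GENCODE release 44 lifted to GRCh37 (18373 of 19835 matched, 11445 with the same version). Overlap, introns and sequences were read from that annotation and genome. Repeated sequence was the share of 24-base words, sampled at 1 in 16, with at least 10 occurrences in the genome. Shared sequence was searched with blastn 2.17.0.

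Tests used limma 3.58.1 in R 4.3.3 with a mean-variance trend on log2(FPKM + 1), fitted over the 11435 transcripts whose mean reached 0.1 FPKM, with Benjamini-Hochberg adjustment. On simulated data for this comparison (11435 transcripts) it recovered 66.7% of transcripts set at 0.5 times the threshold and 100.0% of those at 0.25, 2 or 4 times, with 3.8% false calls. Simulated transcripts of the same level had the same spread, so recovery of transcripts with a wider spread was not tested. Pairs were tested over 83 pairs. The coding gene lists, marker lists, and the members themselves were chosen with earlier results of these data known. Named members were the 15 highest, the 5 with most shared bases, the 3 lowest and 3 highest CVs, up to 3 per list above 5 FPKM, the 2 unplaced nearest 5 FPKM, 4 pairs in each direction (only 3 were above), and all transcripts of the 3 highest genes with several. A gene that this rule names is not reported here. The 12 named for low repeated sequence were chosen after the values were seen. Alternatives were other pseudocounts, filters, scalings, thresholds, overlaps, version matches and leaving out each library.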

Additional observations from a re-analysis of the deposited data

Results flagged for a closer look

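Among 65 members looked at singly, 4 had 1 library that stood apart from the other 3 by Dixon's criterion for 4 values, which chance meets in about 1 in 20 groups. ENSG00000265254 opposite SLC46A1 was lowest in library 2, at 43.87 FPKM, with the others at 54.1 to 56.1 FPKM. ENSG00000233223 opposite CD68 and MPDU1 was lowest in library 3, at 18.98 FPKM, with the others at 41.2 to 45.3 FPKM. ENSG00000263826 opposite EIF4A2 was highest in library 2, at 11.65 FPKM, with the others at 8.27 to 8.84 FPKM. ENSG00000260349 opposite HAPSTR1 was at 0.31 FPKM in library 4 and at 0 in the others, which is an estimate of under 1 fragment on average.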

How the results depend on the processing

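Of 58 alternative values of the counts, 49 stayed within 1.5 times the count reported. A threshold of 1 FPKM placed 372 members above and 166 below, with 481 means above it. Without the filter on low values 958 members were placed below, since members at 0 then entered. Restricting to members with under 5% repeated words, an alternative chosen after seeing the data, left 74 placed above and 103 with a mean above 5 FPKM, while 362 were below. For pairs, 12 were below and 2 above where both sides reached 0.1 FPKM, and with the same version limma placed 19 below and 0 above, also at an unadjusted p below 0.05 (both alternatives hold fewer pairs). Leaving out 1 library gave 232 to 238 members above, 364 to 376 below, 282 to 295 means above 5 FPKM, 2 to 3 pairs above and 28 to 30 below. Scaling the libraries to 1 common sum multiplied values by 0.509 to 0.570, a shift of -0.97 to -0.81 log2 units, and left 182 members above and 408 below.

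Of 61 named members, 10 changed sign against 5 FPKM in 14 values. With the common sum, which lowers every value, the log2 difference became -0.01 for ENSG00000254846, -0.03 for ENSG00000263826, -0.36 for ENSG00000257275, -0.06 for ENSG00000264577, -0.35 for ENSG00000261136 and -0.44 for ENSG00000253200. Leaving out 1 library gave -0.11 to 0.76 for ENSG00000257275, -0.39 to 0.34 for ENSG00000250699, -0.55 to 0.06 for ENSG00000259684, -0.26 to 0.1 for the lower transcript of ENSG00000183308 and -0.29 to 0.15 for ENSG00000237481. No paired analysis was possible because no groups of samples were compared and no replicate number occurs in more than 1 library. The tests of antisense against sense compare values within libraries.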
